A study of Mus musculus with 9 samples.

Results

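The 6 genes described here encode the CXC chemokine ligands Cxcl1, Cxcl2, Cxcl3, Cxcl5, Cxcl10 and Cxcl16. They were taken by gene symbol from the 46517 genes of an RNA-seq table of neutrophils, and each symbol was found once. The neutrophils came from bone marrow (BM), blood and pancreatic tumor, with 3 libraries per compartment and 9 in all. The C57BL/6 mice had been orthotopically transplanted (OT), which means that pancreatic ductal adenocarcinoma cells were injected into the pancreas, and cells were collected on day 27. The injected line, 1242 L in the methods, was derived from a genetic mouse model of pancreatic cancer with a Pdx1-driven Cre and carries luciferase. Each library was made from sorted cells pooled from several OT mice. The sort kept living CD45+ cells without CD3, B220 or NK1.1 that carried Ly6G and Ly6C, and the column names call the BM cells Ly6G high and the other cells Ly6G positive. Every compartment came from tumor-bearing mice, and cells of mice without a tumor were not analysed here.

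CXC chemokines are small secreted proteins that direct the migration of leukocytes through G protein-coupled receptors. Cxcl1, Cxcl2, Cxcl3 and Cxcl5 bind Cxcr2, the main chemokine receptor of mature neutrophils, and attract neutrophils to inflamed tissue. Their mRNAs are short-lived and are induced through NF-kB in many cell types, neutrophils among them. Cxcl10 is induced by interferons and binds Cxcr3 on activated T cells and NK cells. Cxcl16 is made as a membrane protein, binds Cxcr6, and is released from the cell surface by the proteases Adam10 and Adam17.

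Of the 6 genes, 5 lie on mouse chromosome 5 (GRCm38, GENCODE M21). Cxcl5 (ENSMUSG00000029371) is at chr5:90759360-90761624, Cxcl3 (ENSMUSG00000029379) at chr5:90786103-90789600, Cxcl1 (ENSMUSG00000029380) at chr5:90891241-90893115 and Cxcl2 (ENSMUSG00000058427) at chr5:90903871-90905938, all on the plus strand. Cxcl10 (ENSMUSG00000034855) is at chr5:92346638-92348889 on the minus strand, inside Art3, which is transcribed the other way. Cxcl16 (ENSMUSG00000018920) is at chr11:70453983-70459984 on the minus strand and overlaps Zmynd15. Promoter windows of RefSeq (GRCm38.p6) matched 4 members, which were Cxcl1, Cxcl2, Cxcl3 and Cxcl10. The 110 bases before the RefSeq start of the neighbors Cxcl1, Cxcl2 and Cxcl3 are shown because these genes were high together in the tumor libraries. All are written 5′ to 3′ on the gene's strand. The capitals mark the runs of at least 8 bases that all 3 windows share, which are GGGAATTTCCC, a sequence of NF-kB type, and ATAAAAGG, a sequence of TATA type.

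Cxcl1, chr5:90891135-90891244, plus strand: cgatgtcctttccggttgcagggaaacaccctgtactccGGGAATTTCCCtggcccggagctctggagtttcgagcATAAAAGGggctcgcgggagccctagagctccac
Cxcl2, chr5:90903789-90903898, plus strand: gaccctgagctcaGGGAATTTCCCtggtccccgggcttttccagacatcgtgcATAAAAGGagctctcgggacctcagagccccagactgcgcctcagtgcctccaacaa
Cxcl3, chr5:90785991-90786100, plus strand: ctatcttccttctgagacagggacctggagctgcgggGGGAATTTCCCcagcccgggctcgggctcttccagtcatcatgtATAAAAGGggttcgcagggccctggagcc

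GGGAATTTCCC began 71 bases before the RefSeq start in Cxcl1, 97 bases before it in Cxcl2 and 73 bases before it in Cxcl3. The Cxcl2 window ends at 90903898, past the GENCODE start at 90903871, so its distance depends on the start used. Within the 250 bases before the start, on either strand, GGGAATTTCCC occurred in 14 of 32851 mouse promoter windows (0.0426%), the 3 windows above included. ATAAAAGG occurred in 1.54%. Both runs were defined from these 3 windows, so their presence there is no test. The looser NF-kB form GGGNNNNNCC, which overlaps GGGAATTTCCC, occurred in 45.8% of windows and in all 4 members that have one. The 220 bases before the start of Cxcl10 are shown because this ligand is known as a target of interferons as well as NF-kB, with capitals for GAAANNGAAA (interferon response type), GGGNNNNNCC (NF-kB type) and TGANTCA (AP-1 type), each searched on both strands. The gapped motifs were chosen after the sequences had been seen, and a match says only that the letters are there.

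Cxcl10, chr5:92348890-92349109, minus strand: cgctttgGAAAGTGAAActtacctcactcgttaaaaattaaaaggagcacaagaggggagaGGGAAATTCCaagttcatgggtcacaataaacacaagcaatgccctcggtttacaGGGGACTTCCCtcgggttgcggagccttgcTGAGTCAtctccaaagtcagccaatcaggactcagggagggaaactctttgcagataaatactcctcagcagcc

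In the Cxcl10 window GAAANNGAAA began 213 bases before the start, GGGNNNNNCC 159 and 104 bases before it, with a second match overlapping the latter by all but 1 base, and TGANTCA 74 bases before it. GAAANNGAAA occurred in 2.98% of all windows and TGANTCA in 6.75%. Neither was found in the windows of Cxcl1, Cxcl2 or Cxcl3, and Cxcl10 had neither GGGAATTTCCC nor ATAAAAGG.

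The values are log2 FPKM, and each was converted back to the whole number of reads behind it. A library held 4580807 to 7949367 reads. Libraries of one compartment correlated with r of 0.875 to 0.933 across the genes tested, and libraries of different compartments with r of 0.415 to 0.793. Markers of neutrophils were present in all 9 libraries, at 74652 to 77182 RPM (reads per 1000000 reads of the library) for the 10 genes summed in BM, 28249 to 29473 in blood and 13113 to 16173 in tumor. Of these 10 genes, 8 were lower and 2 higher in tumor than in blood, and 9 were lower than in BM (limma, adjusted p under 0.05). The sum turns in part on Ltf, which had 233192 to 243442 reads in BM, 2624 to 2846 in blood and 16196 to 26540 in tumor. Tumor libraries also carried RNA of 10 tumor epithelium markers (2798 to 5950 RPM, against 8.02 to 148 elsewhere), of 8 acinar markers (835 to 3514 RPM, against 1.41 to 8.78) and of 10 fibroblast markers (1167 to 1442 RPM, against 0.359 to 9.99). Blood libraries carried platelet markers at 593 to 790 RPM. In such bulk libraries, more cells that express a gene and more RNA per cell cannot be told apart.

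Cxcl2, a neutrophil attractant, was the most abundant of the 6 ligands in every library. BM libraries held 807, 579 and 545 Cxcl2 reads, blood libraries 203, 177 and 125, and tumor libraries 33905, 52152 and 29983. On the log2 FPKM scale this was 5.87, 5.63 and 5.31 in BM, 4.64, 3.94 and 3.69 in blood, and 11.37, 11.70 and 10.83 in tumor. The 3 compartments did not overlap, with tumor highest and blood lowest. The tumor level exceeded that of blood by 7.21 ± 0.30 (log2 fold change ± SE, limma, adjusted p = 2.65e-06), or 148-fold, and that of BM by 5.70 ± 0.30 (adjusted p = 5.08e-06), or 51.9-fold. In blood Cxcl2 was lower than in BM, at 0.350 of its level (log2 fold change -1.51 ± 0.30, limma, adjusted p = 0.00509). By mean level, Cxcl2 ranked 9 of the 7794 genes tested in tumor, 313 in BM and 845 in blood.

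Cxcl3, which lies 117.8 kb from the Cxcl2 start and binds the same receptor, was scarce outside the tumor. It had 14, 5 and 10 reads in BM, 13, 7 and 1 in blood, and 4621, 7157 and 2919 in tumor. Log2 FPKM values were -0.72, -1.93 and -1.18 in BM, -0.07, -1.44 and -3.81 in blood, and 7.73, 8.08 and 6.72 in tumor. BM and blood overlapped, and every tumor library stood far above both. The fitted difference was 9.28 ± 0.88 to blood (limma, adjusted p = 6.11e-05) and 8.78 ± 0.88 to BM (adjusted p = 0.000101). The difference to blood was 10.13 without blood replicate 1 and 8.27 without blood replicate 3, the library with 1 read. Counted in reads over scaled library sizes, the tumor level was 459 times that of blood (95% exact interval 300 to 741) and 443 times that of BM (308 to 662). Intervals of this kind cover counting error only. Blood and BM differed by -0.50 ± 0.88 (adjusted p = 0.685), less than the spread between blood libraries.

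Transcripts of Cxcl2 and Cxcl3 share a run of 110 identical bases, which is shorter than the 151 cycles of each read, and the next longest run shared within the 6 genes was 23 bases, between Cxcl1 and either of them. Reads inside the 110 bases could be split between Cxcl2 and Cxcl3 or be left out by the counting, and this was not tested.

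Cxcl1, which starts 12.6 kb before Cxcl2, was at the limit of detection in BM and blood. It had 0, 0 and 2 reads in BM, 0, 2 and 0 in blood, and 338, 979 and 260 in tumor. In tumor this was 4.86, 6.11 and 4.13 log2 FPKM. Tumor replicate 2 was highest, as it was for Cxcl2 and Cxcl3. The tumor level was 517 times that of blood (95% exact interval 143 to 4270) and 690 times that of BM (191 to 5699), each against 2 reads. Fitted differences were 9.58 ± 1.23 (limma, adjusted p = 0.000284) and 9.66 ± 1.23 (adjusted p = 0.000334), and with so few reads their size depends on the constant added before the log. Each was 10.73 without the single library that held the 2 reads, which was blood replicate 2 in the former and BM replicate 3 in the latter. Between blood and BM, with 2 reads each, no difference was detectable at this depth.

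Cxcl5, an epithelial and stromal neutrophil attractant in many tissues, had 0, 0 and 1 reads in BM, 0, 3 and 5 in blood, and 244, 121 and 170 in tumor. Its log2 FPKM in tumor was 4.12, 2.82 and 3.24. Here tumor replicate 1 was highest and replicate 2, the highest library for Cxcl1, was lowest. Tumor exceeded blood 43.8 times in reads (95% exact interval 22.1 to 102; log2 fold change 6.39 ± 1.28, limma, adjusted p = 0.00288). Against the single BM read the ratio was 468 (83.6 to 18514), with a fitted difference of 8.58 ± 1.28 (adjusted p = 0.00078). The difference to blood fell to 4.91 without blood replicate 1, which had no read, and was 7.37 without blood replicate 3, and that to BM was 9.36 without BM replicate 3. Cxcl5 was called higher in tumor in each of these fits. Blood was 10.7 times BM in reads (1.43 to 474), but the libraries overlapped and the fitted difference of 2.18 ± 1.28 did not pass the test (adjusted p = 0.206).

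Cxcl10, the interferon-inducible ligand of Cxcr3, had 4, 3 and 0 reads in BM, 13, 5 and 4 in blood, and 702, 845 and 372 in tumor. Log2 FPKM values were -1.83, -1.99 and -5.96 in BM, 0.56, -1.27 and -1.34 in blood, and 5.65, 5.63 and 4.38 in tumor. None of the 3 compartments overlapped with another. Tumor was above blood by 5.91 ± 1.12 (limma, adjusted p = 0.00221), 57.2 times in reads (95% exact interval 37.6 to 91.4). It was above BM by 8.48 ± 1.12 (adjusted p = 0.00041), 240 times in reads (116 to 597). The difference to blood was 6.53 without blood replicate 1, and that to BM was 9.20, 9.12 and 7.13 without BM replicates 1, 2 and 3, all still called. Blood held 4.19 times the reads of BM (1.73 to 11.6), and that difference of 2.58 ± 1.12 did not pass the test (adjusted p = 0.0985). It passed with quantile normalization (2.61, adjusted p = 0.0493), within a range of adjusted p from 0.0403 to 0.296 over the alternative settings. Art3, the gene around Cxcl10 on the other strand, had 13 to 38 reads in tumor and at most 9 elsewhere.

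Cxcl16, the membrane-bound ligand, showed the smallest difference of the 6 between tumor and blood, while against BM its difference and that of Cxcl2 lay close together. It had 4, 3 and 7 reads in BM, 7, 8 and 7 in blood, and 227, 155 and 282 in tumor. Log2 FPKM values were -3.24, -3.41 and -2.46 in BM, -1.73, -2.03 and -1.97 in blood, and 2.61, 1.77 and 2.57 in tumor. Tumor exceeded blood by 4.23 ± 0.35 (limma, adjusted p = 3.13e-05), 18.7-fold, and BM by 5.35 ± 0.35 (adjusted p = 1.2e-05), 40.9-fold. Against BM this was below the 5.70 ± 0.30 of Cxcl2 by about the size of either error, and the order turned without BM replicate 3 (5.64 for Cxcl16 and 5.55 for Cxcl2) and without tumor replicate 2 (5.62 and 5.50). Blood was above BM by 1.12 ± 0.35 (adjusted p = 0.0326), on 22 against 14 reads, and this call was lost in 10 of 22 alternative settings, with adjusted p from 0.0168 to 0.473. Zmynd15, which overlaps Cxcl16, had 1 to 14 reads in tumor and at most 1 elsewhere.

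**Figure D1:**
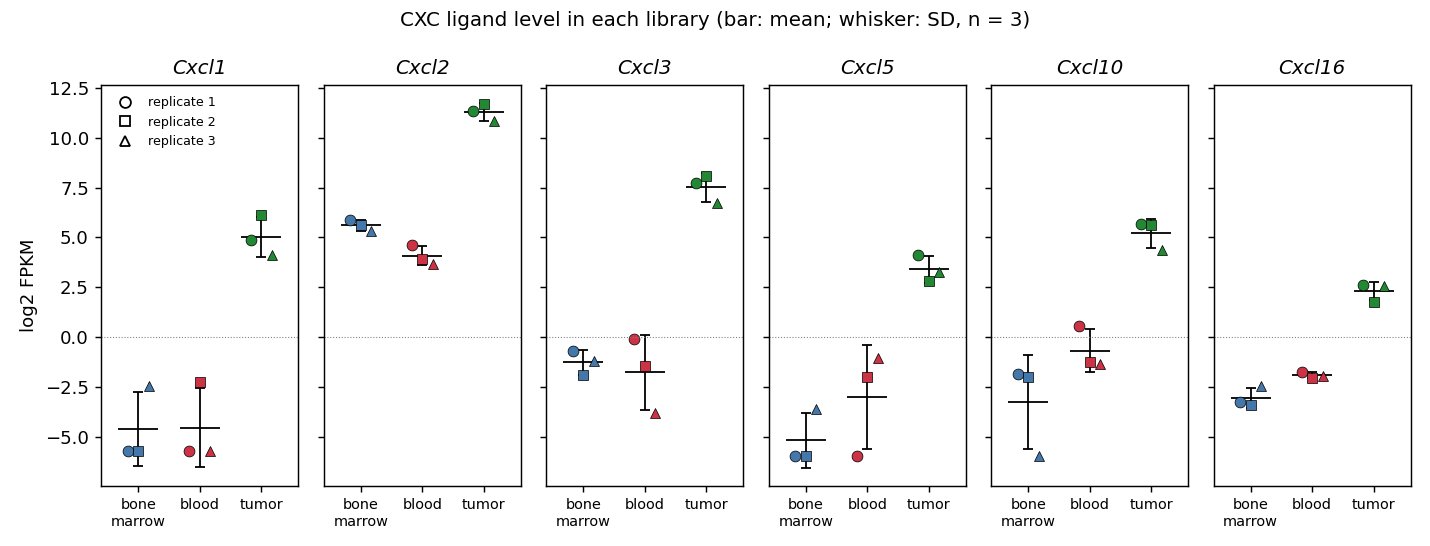
Level of each ligand in each library, in log2 FPKM on the vertical axis, for BM, blood and tumor. Points are libraries, shaped by replicate number, the bar is the mean and the whisker the SD of 3 libraries. In all 6 panels the tumor points lie above every BM and blood point, and in BM and blood only Cxcl2 lies above 0 in all 3 libraries.

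Across the 7794 genes tested, 28.1% were called higher in tumor than in blood and 34.5% lower, and 22.4% were called higher in tumor than in BM and 32.9% lower. All 6 ligands were called higher in both comparisons, which share the tumor libraries. Of the 6, all but Cxcl2 passed the filter on low values only because of the tumor libraries, so these 5 had to differ and the count of 6 is a description. Without the filter, 23.2% of 23861 genes with a read were called higher in tumor than in blood and 18% higher in tumor than in BM, and the 6 ligands were again called higher. Tumor libraries did not overlap with blood for any ligand, as was the case, on the higher side, for 30% of genes tested, nor with BM (26.2%). With 3 libraries against 3, the exact two-sided permutation test gave p = 0.1 for each ligand in both, the smallest it can give. The median log2 fold change of the 6 was 6.80 against blood, where that of all genes tested was -0.17, and 8.53 against BM, where it was -0.21. Fold changes of the low ligands depend on the constant added before the log: with a pseudocount of 1 FPKM they ran from 2.25 for Cxcl16 and 3.23 for Cxcl5 through 4.97 for Cxcl1 to 7.13 for Cxcl2 against blood, and all 6 were called higher. Scaling by plain library totals moved the all-gene medians to 0.28 and 0.25, turned the calls against blood from 2194 higher and 2686 lower to 2923 and 1898, and those against BM from 1745 and 2566 to 2601 and 1634; the 6 calls held under it.

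Between blood and BM, 20.6% of the genes tested were called higher in blood and 23.6% lower. Here 1 ligand was called higher (Cxcl16) and 1 lower (Cxcl2). Every blood library was below every BM library for Cxcl2, a pattern found in 31% of genes, and above for Cxcl10 and Cxcl16, a pattern found in 27.8%. Their shares near the background give no result about the ligands as a group, whose median log2 fold change was 0.60 beside -0.04 for all genes.

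**Figure D2:**
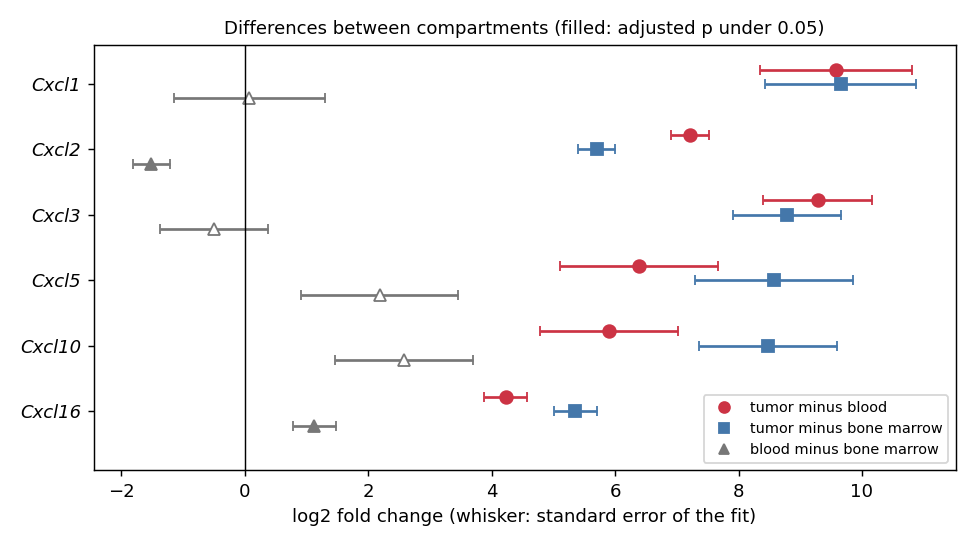
Log2 fold change of each ligand in the 3 comparisons, on the horizontal axis, with the standard error of the limma fit as whiskers. Filled symbols passed an adjusted p of 0.05. Both tumor differences lie between 4.23 and 9.66 for every ligand, while the differences between blood and BM lie between -1.51 and 2.58.

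Levels were then compared between the ligands within a library, per length of the gene as the authors used it. In tumor the order was Cxcl2 (1825 to 3335 FPKM), Cxcl3 (105 to 271), Cxcl10 (20.8 to 50.2) and Cxcl1 (17.5 to 69.1), Cxcl5 (7.08 to 17.4) and Cxcl16 (3.42 to 6.10). Cxcl10 and Cxcl1 overlapped, and the other neighbors in this order did not, although the lowest Cxcl1 library (17.5) was next to the highest Cxcl5 library (17.4). Cxcl2 made up 90.2 ± 1.55% (SD, n = 3) of the summed FPKM of the 6 ligands in tumor, Cxcl3 6.58 ± 1.11%, Cxcl10 1.36 ± 0.326%, Cxcl1 1.24 ± 0.532%, Cxcl5 0.417 ± 0.205% and Cxcl16 0.199 ± 0.104%. In BM the Cxcl2 share was 98.4 ± 0.453%, and in blood it was 91.2 ± 0.828%. The length the authors used for Cxcl16 was 6002 bases, its whole span, whereas its annotated exons cover 3021. On annotated exons its share in tumor was 0.393 ± 0.205%, still below but close to the 0.506 ± 0.248% of Cxcl5 on the same basis. In reads not divided by length, the tumor libraries held 227, 155 and 282 of Cxcl16 and 244, 121 and 170 of Cxcl5. The order of Cxcl16 and Cxcl5, and not only their distance, therefore depends on the length used. Together the 6 ligands took 5225 to 8811 RPM in tumor, 75.0 to 104 in BM and 25.5 to 51.5 in blood.

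The tumor libraries differed among themselves, and the ligands did not follow one order. Cxcl1 (62.1, 140 and 40.0 RPM in replicates 1, 2 and 3), Cxcl2 (6225, 7483 and 4609.8) and Cxcl3 (848, 1027 and 449) were highest in replicate 2 and lowest in replicate 3. Cxcl10 was nearly level in replicates 1 and 2 and lowest in 3 (129, 121 and 57.2 RPM). Cxcl5 (44.8, 17.4 and 26.1 RPM) and Cxcl16 (41.7, 22.2 and 43.4 RPM) were lowest in replicate 2.

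Marker RNA of other cells also varied over the 3 tumor libraries. The summed tumor epithelium markers were at 3708, 2798 and 5950 RPM and the acinar markers at 1228, 835 and 3514 RPM, both lowest in replicate 2 and highest in replicate 3. This is the reverse of the order of Cxcl1, Cxcl2 and Cxcl3, while Cxcl5 and Cxcl16 were lowest in the same library as these markers. The summed neutrophil markers, at 16173, 13113 and 14149 RPM, were lowest in replicate 2 as well. Single neutrophil markers did not share this order. By log2 FPKM, Ly6g, Mmp8, Retnlg, Ltf and Camp were lowest in replicate 2. Csf3r, Mmp9 and Itgam were highest there, and S100a8 and S100a9 were lowest in replicate 3. Fibroblast markers were at 1167, 1218 and 1442 RPM, and endothelium markers at 132, 167 and 166 RPM. Macrophage and monocyte markers were at 473, 500.5 and 388 RPM in tumor, below blood (1146 to 1341) and near BM (422 to 465). Like Cxcl1, Cxcl2 and Cxcl3, their sum was highest in replicate 2 and lowest in replicate 3. Of the 10 markers, 7 were tested, with 1 called higher and 2 lower in tumor than in blood, and 1 higher and 2 lower than in BM. Csf1r, the receptor of a macrophage growth factor, had 1254 to 1709 reads in tumor and was called lower than in blood (-2.54) and in BM (-0.60, not called under plain library totals). Adgre1, which encodes F4/80, had 767 to 1528 and was called higher than in BM (1.29, limma, adjusted p = 0.00714), and C1qb had 60 to 87 and was called higher than in blood (1.04, adjusted p = 0.0397), though not with median centring or quantile normalization. C1qa had 30 to 33 reads in tumor, Ms4a7 had 3 to 5 and Cx3cr1 had 0 to 5. Lymphocyte markers were at 5.69 to 8.03 RPM in tumor and 13.5 to 113 elsewhere. The part of these other cells in the ligand levels was not tested.

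One blood library, replicate 2, also carried epithelial RNA. Its tumor epithelium markers summed to 148 RPM, against 23.8 and 21.6 in the other blood libraries, with 406 reads of Krt8, a simple-epithelium keratin, against 3 and 5. Cxcl2 in that library was at 25.9 RPM, between the 44.3 and 22.5 RPM of replicates 1 and 3, and Cxcl3 at 1.02 RPM lay between 2.84 and 0.180. Cxcl1, by contrast, had its only 2 blood reads there. Without blood replicate 2, and without any other single library, all 6 ligands were still called higher in tumor than in blood and in BM.

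**Figure D3:**
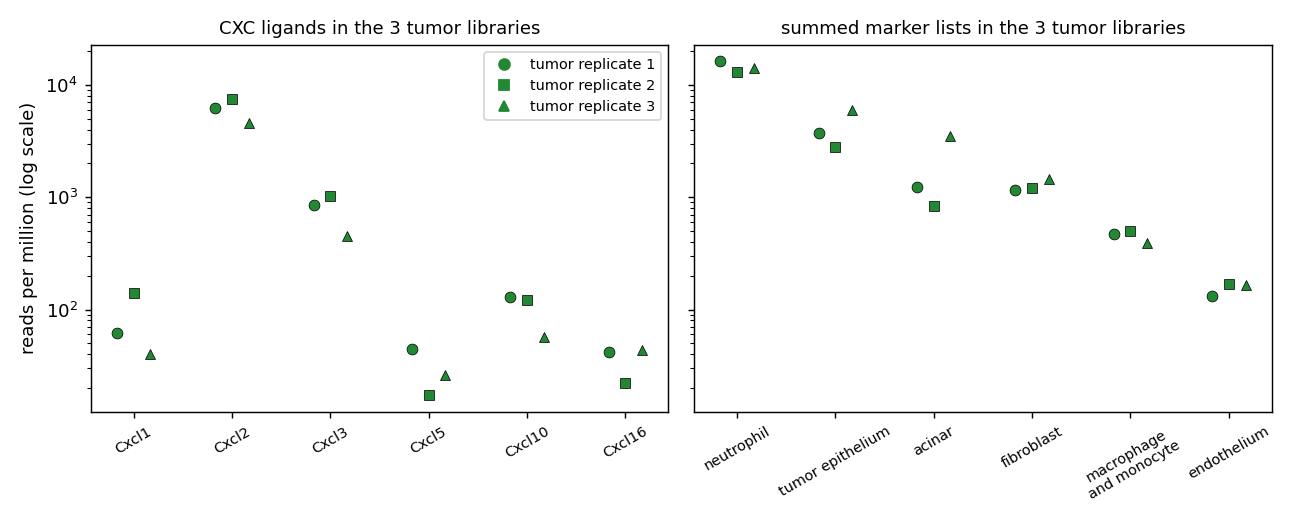
RPM (log axis) in each of the 3 tumor libraries, for the 6 ligands on the left and for the summed marker genes of 6 cell types on the right. Cxcl1, Cxcl2 and Cxcl3 are highest in replicate 2. In that library the epithelial, acinar and neutrophil sums are lowest, and the macrophage and endothelium sums are highest.

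Along chromosome 5 the ligands share their neighborhood with genes of other patterns. Ppbp and Pf4, the platelet CXC ligands, lie between Cxcl5 and Cxcl3 and were highest in blood. Ppbp had 1009, 1235 and 764 reads in blood, 6, 13 and 5 in BM, and 9, 9 and 0 in tumor, and differed between tumor and blood by -9.02 ± 1.31 (log2 fold change, limma, adjusted p = 0.000552). Pf4 had 68, 100 and 68 reads in blood and at most 5 elsewhere, with a tumor minus blood difference of -5.41 ± 0.55 (adjusted p = 8.24e-05). Both moved with the platelet markers, which were at 593 to 790 RPM in blood and 4.96 to 13.5 in BM and tumor, and the part of platelets was not tested. Cxcl15, between Cxcl3 and Cxcl1, had 8 to 11 reads in tumor and at most 1 elsewhere.

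Beyond Cxcl2, Mthfd2l had 12 to 60 reads in tumor and at most 6 in any BM or blood library. The EGF-family ligands Ereg, Areg and Btc had 22 to 113, 52 to 89 and 58 to 129 reads in tumor and at most 2 elsewhere. Epgn, in the same stretch, had 0 reads in tumor. Mthfd2l, Epgn, Ereg, Areg and Btc did not pass the filter and were not tested in the main comparison. Next to Cxcl10, Cxcl9 had 44, 25 and 14 reads in tumor and Cxcl11 21, 16 and 18, with at most 3 elsewhere, so these other Cxcr3 ligands were far below Cxcl10 and also stayed under the filter.

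**Figure D4:**
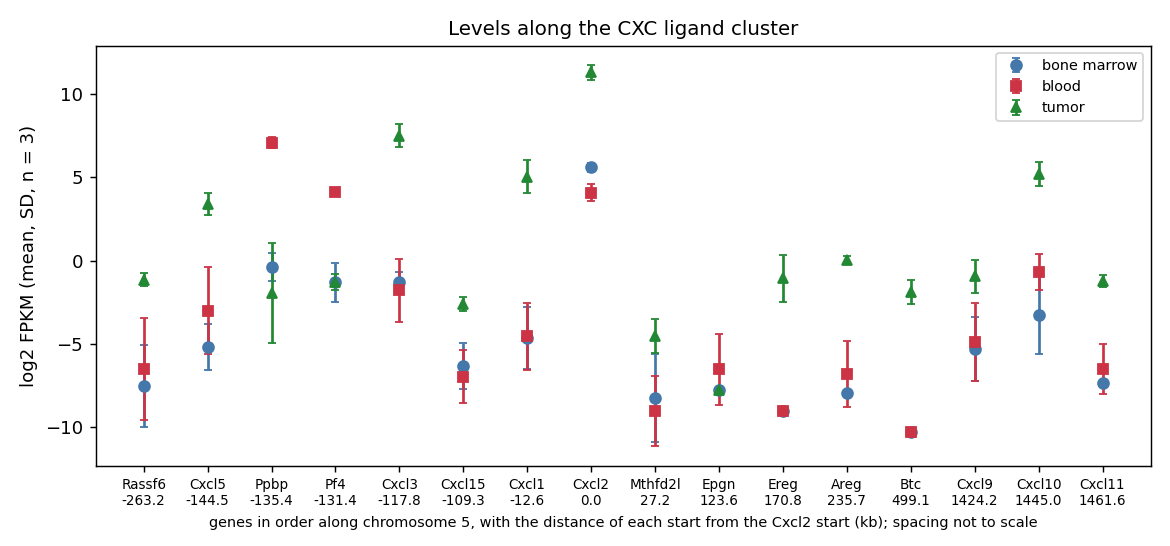
Mean log2 FPKM with SD (n = 3) for 16 genes in their order along chromosome 5, with each start's distance from the Cxcl2 start in kb under the name and even spacing. Ppbp and Pf4 are highest in blood, whereas Cxcl5, Cxcl3, Cxcl1, Cxcl2 and Cxcl10 are highest in tumor.

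Of the 9 other CXC ligands measured, 3 passed the filter, and besides Ppbp and Pf4 this was Cxcl12, a stromal ligand of Cxcr4. Cxcl12 had 102, 107 and 111 reads in tumor, 1, 5 and 6 in BM and 0, 3 and 0 in blood, and was called higher in tumor than in both, together with the fibroblast markers (limma, adjusted p = 0.00095 and 0.00999). The remaining ligands Cxcl13, Cxcl14 and Cxcl17 had 4 to 18, 26 to 58 and 52 to 102 reads in tumor and at most 1 read elsewhere.

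The receptors of these ligands were measured in the same libraries. Cxcr2, the receptor of Cxcl1, Cxcl2, Cxcl3 and Cxcl5, was at 8.79, 8.90 and 8.62 log2 FPKM in BM, 9.88, 10.16 and 10.09 in blood, and 7.72, 7.78 and 7.46 in tumor. The compartments did not overlap, and tumor was lowest, where Cxcl1, Cxcl2, Cxcl3 and Cxcl5 were highest. Tumor was below blood (log2 fold change -2.39 ± 0.14, limma, adjusted p = 6.16e-06) and below BM (-1.12, adjusted p = 0.000261), and blood was above BM by 1.28 (adjusted p = 0.00026). Cxcr1 (log2 fold change -1.93 ± 0.35, adjusted p = 0.00183) and Cxcr3 (-2.54, adjusted p = 0.000941), the latter the receptor of Cxcl10, were also lower in tumor than in blood. Cxcr3 differed by -0.36 between tumor and BM (adjusted p = 0.483). Cxcr6, the receptor of Cxcl16, had 12, 6 and 30 reads in BM, 9, 12 and 15 in blood, and 35, 5 and 0 in tumor, stayed under the filter, and showed no common direction over the libraries.

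Counting over the 8 receptors, 5 were tested, with 1 called higher and 4 lower in tumor than in blood (Cxcr4, at -0.83, was not called under plain library totals), 1 higher and 1 lower in tumor than in BM, and 3 higher in blood than in BM. Of all genes tested, 28.1% were called higher in tumor than in blood and 34.5% lower. For tumor against BM these shares were 22.4% and 32.9%, and for blood against BM 20.6% and 23.6%. With median centring, Cxcr4 was also called higher in blood than in BM (0.62, limma, adjusted p = 0.0443). With 5 receptors tested, the counts are a description. The median log2 fold change of tumor against blood over the 5 receptors was -1.93. The receptor called higher in tumor was Ackr3, an atypical receptor of Cxcl12 that takes up its ligand, with 108, 116 and 190 reads in tumor, 0 in each BM library and 0, 1 and 1 in blood. Adam10 and Adam17, the proteases that release Cxcl16, did not pass the test in any of the 3 comparisons, with adjusted p of limma from 0.236 to 0.930. Log2 fold changes were -0.20 and -0.27 for tumor against blood.

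**Figure D5:**
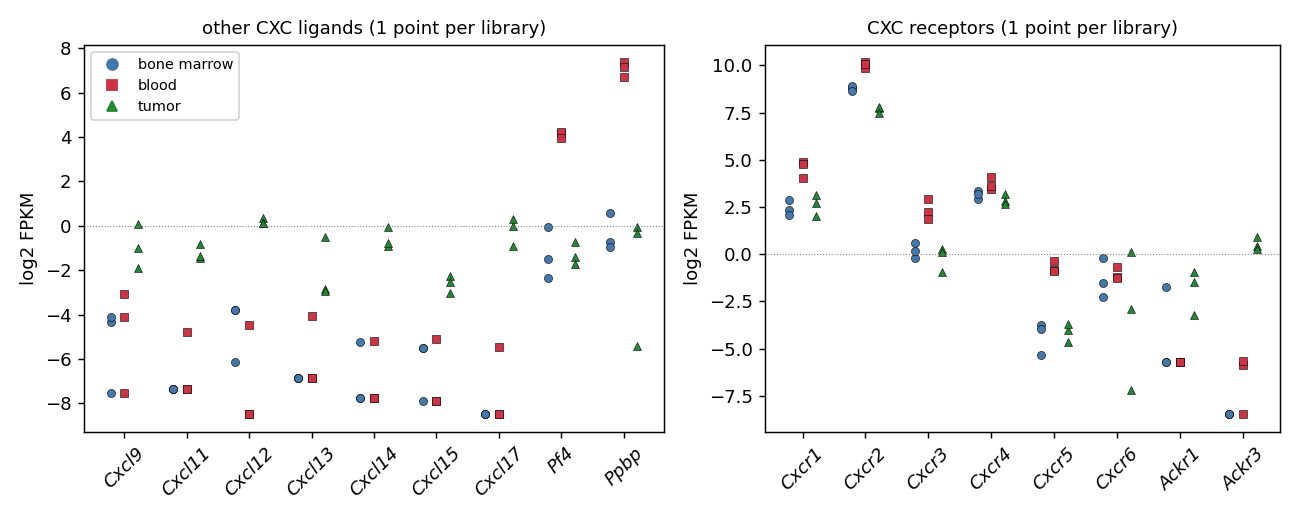
Log2 FPKM of the 9 other CXC ligands (left) and of 8 CXC receptors (right), 1 point per library, colored by compartment. Ppbp and Pf4 are highest in blood, and Cxcr2 is highest in blood and lowest in tumor in every library.

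Genes of the pathways known to induce these ligands were counted from set lists. Of all genes tested, 28.1% were called higher and 34.5% lower in tumor than in blood, and 22.4% higher and 32.9% lower than in BM. In blood against BM these shares were 20.6% and 23.6%. Of 16 NF-kB target and feedback genes, all tested, 10 were called higher and 2 lower in tumor than in blood, and 12 higher in tumor than in BM. Median log2 fold changes were 1.26 and 2.15. Against blood, the CC chemokines Ccl3 (7.03 ± 0.31) and Ccl4 (6.57 ± 0.35) rose most in this list. Next came the feedback inhibitor Tnfaip3 (5.34 ± 0.39, limma, adjusted p = 1.73e-05) and the cytokine Tnf (4.89 ± 0.24, adjusted p = 3.9e-06). Against BM, Icam1 (4.74) and Il1b (4.52) lay above Tnf (3.90). Nfkb1, which encodes the p105 subunit precursor, was lower in tumor than in blood (-1.16, adjusted p = 0.00933, but not called under plain library totals), as was the apoptosis inhibitor Birc3 (-0.87, adjusted p = 0.00152). In blood against BM 9 genes of this list were called higher and 1, Tnf, lower (-0.99, adjusted p = 0.0118).

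Interferon-stimulated genes were counted in the same way. Of 19, 15 were tested, and in tumor against blood 2 were called higher and 6 lower, with a median of -0.15. The genes called higher were Ifit2 (1.42 ± 0.41, limma, adjusted p = 0.0162) and Rsad2 (0.81 ± 0.17, adjusted p = 0.00384), both antiviral effectors. Plain library totals made this 6 higher and 3 lower, and quantile normalization 7 higher and 6 lower, so the balance of the list depends on the scaling. Irf1 (-1.09, adjusted p = 0.000223) and Irf7 (-1.26, adjusted p = 0.000289), transcription factors of the interferon response, were among those called lower. Against BM, 11 of the 15 were called higher in tumor and 1 lower, and in blood against BM 12 were called higher and 1 lower. Cmpk2 was the gene called lower in both. The part of interferon in the Cxcl10 level was not tested.

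Chemokine mRNAs carry AU-rich elements that decay factors bind. Of 6 such factors, 5 were tested, with 2 called higher in tumor than in blood and 3 higher than in BM. Beside these stand 28.1% and 22.4% of all genes tested, and so few genes give no result about the list. Zfp36, which promotes the decay of these mRNAs, was called higher in tumor than in BM (1.46 ± 0.20, limma, adjusted p = 0.000459) and than in blood (adjusted p = 0.000327), and so was the RNase Zc3h12a (2.44 against BM and 0.63 ± 0.20 against blood, adjusted p = 0.0248). Zfp36l1, of the same family as Zfp36, was called higher than in BM in tumor (2.76) and in blood (2.58), and its difference between tumor and blood was 0.18 (adjusted p = 0.436), which passed under plain library totals (0.63) and quantile normalization (0.55). Zfp36l2 was called in no comparison (0.26 against blood and 0.42 against BM, the latter passing under plain library totals at 0.88), and neither was Elavl1, a stabilizer of such mRNAs (0.075 and -0.52).

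Last, the genes whose log2 FPKM was most like that of each ligand over the 9 libraries were listed by Pearson's r, as a description, since the libraries fall into 3 compartments. For Cxcl2 these were Frrs1 (0.997), Etf1 (0.995) and Tnf (0.991), and for Cxcl3 they were Cish (0.990), Gm17971 (0.990) and Tmbim1 (0.987). Cxcl1 was most like Rab15 (0.991), Ciapin1 (0.991) and Apol9b (0.990). Among the genes most like Cxcl5 were AA986860 (0.988) and Traf1 (0.980). Cxcl10 was followed by Rhov (0.987), Cxadr (0.975) and Tgif1 (0.969). Among those most like Cxcl16 were Crip2 (0.989) and Prss2 (0.988), and Prss2, a trypsinogen, is one of the acinar markers. Among the ligands themselves, r ran from 0.787 (Cxcl5 and Cxcl10) to 0.977 (Cxcl2 and Cxcl3).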

How the data were processed

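RNA of sorted neutrophils (2 ng per library) was made into cDNA with SMARTSeq v2 and sequenced with 151 cycles per read. According to the study's methods and the submitters' processing notes, reads were mapped with STAR 2.5.2b to GRCm38 and counted with featureCounts 1.5.0 on GENCODE M7, and edgeR 3.8.6 is named. The authors deposited log2 FPKM values for 46517 genes, computed with the genomic span as length for 84.5% of the 46005 genes found in GENCODE M21, with scaled library sizes and a small constant added before the log. Whole reads were recovered at 4580807 to 7949367 per library. Of the values under 1000 reads, 100% lay within 0.00001 reads of a whole number. For genes with fewer than 2 libraries without reads, the search itself required this, so there the 100% is no check. The recovery was tested separately on simulated data. The protocol used does not mark strand, so reads of overlapping antisense genes cannot be told apart.

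Testing covered the 7794 genes above 0 log2 FPKM in 3 or more of the libraries and used limma 3.58.1 (intensity trend, all 9 libraries, 3 contrasts, R 4.3.3), with Benjamini-Hochberg adjustment over all genes and a threshold of 0.05. Read ratios carry exact 95% binomial intervals. For genes with few reads, log2 fold changes depend on the constant added before the log and can lie above or below the ratio of reads. Alternatives were other filters, pseudocounts, scalings and fits, limma-voom on recovered reads, and each library left out. Named genes were the 6 ligands, genes of set lists, and the 3 genes most like each ligand, some of which are not reported here; neighboring and overlapping genes were added after their values were seen. Members and lists were chosen with earlier results of these data known. Separate experiments are described in the study's methods, but the labels do not tie a library to one, so p-values measure the spread between these libraries.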

Additional observations from a re-analysis of the deposited data

How the results depend on the processing

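All 6 ligands were called higher in tumor than in blood and in BM under every alternative run, except that Cxcl16 was not tested with log2 FPKM over 2 in at least 3 libraries. The fall of Cxcl2 from BM to blood held in 23 alternatives (log2 fold change -1.79 to -1.31). For Cxcl16 in blood against BM, the call was lost without a filter (1.12, adjusted p = 0.0553), with pseudocounts of 1 (0.17, 0.473) and 0.1 FPKM (0.71, 0.0628), with robust estimation (1.12, 0.0533) and with limma-voom (1.08, 0.352). With 1 library left out, Cxcl16 ran from 0.94 (without BM replicate 2) to 1.41 (without BM replicate 3), and was lost without BM replicate 1 or any blood library too. The number of ligands called higher in blood was then 0, in place of 1, under these settings and under the stricter filter, and 0 to 1 with 1 library left out; it was 2 with quantile normalization. Cxcl10 in blood against BM passed with quantile normalization (2.61, adjusted p = 0.0493). Cxcl3 changed sign with quantile normalization (0.037) and without blood replicate 3 (0.52), with a range of -1.35 to 0.52 over libraries left out. Cxcl1, with 2 reads in each compartment, changed sign without BM replicate 1 or 2 (-0.46) and without blood replicate 2 (-1.07), up to 1.15. Cxcl5 passed without blood replicate 1 (3.67, adjusted p = 0.013), and ran from 1.20 to 3.67 with 1 library left out.

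Deviations of same-numbered libraries correlated with r of -0.071 to 0.108 over 9 pairs, and those of other pairs with r of -0.098 to 0.106. Of 18 cases, 8 correlated best with their own number. With 3 libraries per compartment, this cannot tell whether the numbers pair the libraries. With the replicate block, Cxcl10 passed in blood against BM (2.58, adjusted p = 0.0403), so 2 ligands were called higher there, and no other call of a ligand changed.

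Counts over all genes depended on how many were tested. In tumor against blood the number higher was 5534 without a filter, 918 with the stricter filter, 5871 with limma-voom and 5740 with at least 5 reads in any library (a filter added after the data were seen), and 1644 were lower with the stricter filter. In tumor against BM these were 4284, 849, 5192, 4469 and 1529, with 1634 lower under plain library totals. In blood against BM the stricter filter gave 1036 higher and 888 lower, a log2 fold change of at least 1 gave 968 and 1208, limma-voom gave 2449 and 2912, and at least 5 reads gave 2890 lower.

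Without division by length the Cxcl2 share was 97.3% in BM, 87.2% in blood and 85.9% in tumor, and on annotated exons it was 89.6% in blood. Levels of Cxcl1, Cxcl5, Cxcl10 and Cxcl16 in BM and blood rest on at most 13 reads a library, which limits what can be said of them there.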
